A study of Homo sapiens with 6 samples.

Results

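The 10 circadian clock genes PER1, PER2, PER3, CRY1, CRY2, BHLHE40, NR1D1, NR1D2, CLOCK and DBP were followed from nascent transcription to RNA in K562 cells, a human line derived from a chronic myelogenous leukemia. They were taken by name from the gene symbols of the counted transcripts, and are 10 of 37254 transcription units (TUs) with a length usable in both assays. The study made libraries of 2 kinds, 4 by total RNA-seq and 2 by PRO-seq, from untreated cells of one source. PRO-seq reads the nascent RNA held by engaged polymerases. Its level is an occupancy, which rises with more frequent initiation and also with slower elongation. Total RNA-seq, with ribosomal RNA removed, counts the RNA present. In the study the ratio of RNA-seq to PRO-seq serves as a relative measure of how stable an RNA is. Its main results rest on earlier published K562 PRO-seq and poly-A+ RNA-seq, not on these libraries. The authors found half-life estimates from the earlier data less variable and closer to published ones than estimates from these libraries. Sensitivity did not differ substantially. There was a single line, no treatment and no time course, so levels are means over all cells, and fewer cells transcribing a gene cannot be told apart from fewer polymerases per cell.

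In the mammalian clock, CLOCK pairs with BMAL1 and switches on genes through E-box sequences. Among these genes are the PER and CRY genes, whose proteins return to block the activators, and NR1D1 and NR1D2, nuclear receptors that repress BMAL1. BHLHE40 competes for E-boxes, and DBP carries the rhythm to output genes through D-box sequences. Several of the feedback messages are known to be short-lived.

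Counts on TUs ranged from 5732780 to 9002746 in the RNA-seq libraries, and were 6993816 and 7245632 in PRO-seq. RNA-seq replicates 1 and 3, and likewise 2 and 4, differed by little more than sampling noise (chi-square per degree of freedom 1.11 and 1.12, against 1.74 to 2.11 for the other RNA-seq pairs). Since all cells came from one source, p-values measure the spread between libraries, which may be technical. All 10 genes of an erythroid and K562 marker list were above 1 TPM in RNA-seq and 8 of 10 in PRO-seq, where 1 of them, HBE1, was listed at 0. The 5 listed genes of a lymphoid list summed to 0.490 to 1.09 TPM in RNA-seq and 4.90 to 8.01 TPM in PRO-seq.

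Short promoter windows of the clock genes that hold the recognition sequences of this circuit are shown first, because factors that other members encode can bind such sequences. They come from RefSeq windows of 300 bases (250 before to 50 after each annotated start, GRCh38.p14, 14 windows for the 10 genes), searched on both strands. The E-box CACGTG stood in 3 of the 14 windows (PER1, BHLHE40 and NR1D2), against 7.26% of 35116 promoter windows of all genes. Capitals mark it here.
PER1 (chr17:8152555-8152594, minus strand): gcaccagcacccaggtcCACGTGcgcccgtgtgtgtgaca
BHLHE40 (chr3:4979187-4979214, plus strand): tccaaCACGTGagactcatgtgatgaag
NR1D2, first site (chr3:23945949-23945988, plus strand): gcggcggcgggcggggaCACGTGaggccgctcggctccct
NR1D2, second site (chr3:23945999-23946038, plus strand): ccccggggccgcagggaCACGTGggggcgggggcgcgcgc

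The D-box TTATGTAA, the kind of site that DBP binds, was in 2 of the 14 windows, against 0.886% of all promoter windows. The nuclear receptor core AGGTCA, read by NR1D1, NR1D2 and their ROR competitors, was in 3 of the 14, those of CRY2 (2 windows) and PER1, against 13.8% of all windows. NR1D2 held both an E-box and a D-box, the latter on the opposite strand and so written as its reverse complement. Capitals mark the D-box here.
PER3 (chr1:7784097-7784138, plus strand): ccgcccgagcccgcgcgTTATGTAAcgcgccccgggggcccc
NR1D2 (chr3:23945910-23945951, plus strand): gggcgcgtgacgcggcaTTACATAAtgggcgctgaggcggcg
These matches describe the letters of the windows, and binding was not measured. The windows follow RefSeq starts, which need not be the starts of the counted transcripts. For PER1, the counted transcript begins 4102 bp upstream of the canonical transcript.

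All levels below are TPM, reads per unit of length scaled to the same total in each library, computed from the deposited counts with exon length for RNA-seq and TU span less 1000 bp for PRO-seq. Every gene was then compared between assays with the edgeR quasi-likelihood test, as a log2 RNA-seq/PRO-seq ratio relative to the median mRNA, with Benjamini-Hochberg adjustment over 21621 TUs with at least 10 counts over the 6 libraries. All 10 clock genes passed that minimum. A ratio of 0 stands for the median mRNA. In TPM, the median ratio of RNA-seq to PRO-seq over 13877 mRNAs with counts in both assays was 0.453. The assays share no absolute TPM scale, so whether RNA-seq TPM lies above or below PRO-seq TPM depends on the scaling. Gene positions are those of GRCh37.

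The clock genes differed widely in engaged polymerase, and the order of their RNA levels was another one. BHLHE40 led both assays. Mean PRO-seq levels spanned 38.1-fold over the 10 genes and mean RNA-seq levels 22.5-fold. Summed counts per gene ran from 87 to 1866 in RNA-seq and from 81 to 2767 in PRO-seq, so PER1, NR1D1 and DBP rest on few reads.

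CLOCK, the DNA-binding activator of the loop, had more polymerase than the typical gene and close to the typical amount of RNA. Its TU (chr4:56294070-56413076, minus strand, 23 exons) is the longest of the 10. PRO-seq levels were 44.6 and 45.2 TPM, at percentile 69.0 of mRNAs. RNA-seq levels were 9.16, 8.70, 8.48 and 8.45 TPM, at percentile 48.9. Libraries of each assay lay close together. The log2 ratio of CLOCK was -1.15 ± 0.0629 (SE), or 2.22-fold below the median mRNA (edgeR quasi-likelihood test, Benjamini-Hochberg adjusted p = 4.37e-74). Of its PRO-seq window, 20.8% overlaps TMEM165 on the opposite strand.

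The 3 PER genes, whose proteins make up the repressing arm with the CRYs, split in 2 directions: PER1 and PER2 lay below the median mRNA and PER3 above it, although PER1 stood at 0.09 on the log2 scale without length correction. PER2 (chr2:239152685-239197251, minus strand, 23 exons) had RNA-seq levels of 3.22, 3.51, 3.30 and 3.71 TPM and PRO-seq levels of 33.9 and 33.4 TPM. PER3 (chr1:7844489-7905236, plus strand, 22 exons) had 11.6, 11.6, 10.8 and 12.3 TPM in RNA-seq and 13.2 and 12.2 TPM in PRO-seq. Every RNA-seq library thus held more PER3 than PER2, and both PRO-seq libraries held more PER2. For PER3 alone of the 10, the TPM ranges of the assays overlapped. The log2 ratio of PER2 was -2.08 ± 0.108 (4.23-fold below, edgeR quasi-likelihood test, Benjamini-Hochberg adjusted p = 2.38e-82). That of PER3 was 1.08 ± 0.0972 (2.11-fold above, same test, adjusted p = 5.09e-28). Counted TUs on the opposite strand cover 24.3% of the PRO-seq window of PER2, and 28.8% of that of PER3 with 19.7% of its exon bases (UTS2 among them).

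PER1, the fast-responding member of the family, had the lowest mean RNA level of the 10. RNA-seq levels were 2.00, 2.58, 1.91 and 1.35 TPM, on 25, 34, 16 and 13 counts. PRO-seq levels were 9.79 and 17.2 TPM, on 29 and 52 counts. Each PRO-seq library lay above each RNA-seq library, and the PRO-seq libraries differed from each other more for PER1 than for any of the other 9. The log2 ratio was -1.53 ± 0.262, or 2.90-fold below the median mRNA (edgeR quasi-likelihood test, Benjamini-Hochberg adjusted p = 1.07e-08).

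The transcript counted for PER1, ENST00000581395 (chr17:8047374-8059824, minus strand, 16 exons), is not the usual one. It is annotated as a target of nonsense-mediated decay, holds 49.5% of the exon bases of the canonical transcript, begins 4102 bp upstream of it and stops 3584 bp before its end. The canonical start lies inside the PRO-seq window of PER1, which is so for 13.6% of mRNAs. A lncRNA TU on the same strand covers 41.0% of that window. With the bases shared on the same strand left out of the lengths, a choice made after seeing the data, the log2 ratio of PER1 was -2.20.

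The cryptochromes, partners of PER and direct inhibitors of CLOCK, were both well represented in RNA, CRY1 more than CRY2. CRY1 (chr12:107385142-107487327, minus strand, 13 exons) had 38.8, 38.1, 39.0 and 39.9 TPM in RNA-seq and 25.1 and 25.8 TPM in PRO-seq. For CRY2 (chr11:45868957-45904799, plus strand, 12 exons), RNA-seq gave 16.1, 14.3, 18.0 and 15.9 TPM and PRO-seq 37.6 and 38.9 TPM. CRY1 was thus the more abundant RNA in every RNA-seq library while CRY2 had the higher PRO-seq level in both. With length correction CRY1 had the highest log2 ratio of the 10 genes (without it NR1D2, PER3, BHLHE40 and CRY2 stood higher), 1.82 ± 0.0697 (3.54-fold above the median mRNA, edgeR quasi-likelihood test, Benjamini-Hochberg adjusted p = 5.06e-149). CRY2, at -0.06 ± 0.0876, was not told apart from the median mRNA by this test (adjusted p = 0.560).

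BHLHE40, a basic helix-loop-helix repressor that answers many stimuli besides the clock, was among the genes with the highest PRO-seq level per unit of length. Its PRO-seq levels were 457 and 510 TPM, at percentile 99.2 of mRNAs. Its RNA-seq levels were 41.9, 41.0, 49.1 and 44.4 TPM, at percentile 76.1. RNA of BHLHE40 was close to that of CRY1 in abundance, with the 4 libraries of BHLHE40 all above those of CRY1, although CRY1 had PRO-seq levels of 25.1 and 25.8 TPM. The TU is short (chr3:5021122-5027008, plus strand, 5 exons, 5.887 kb). Its log2 ratio was -2.26 ± 0.0694, or 4.78-fold below the median mRNA (edgeR quasi-likelihood test, Benjamini-Hochberg adjusted p = 2.45e-229), and turned to 0.58 without length correction.

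The 2 REV-ERB receptors, which repress BMAL1 and bind heme, lay on opposite sides of the median mRNA. NR1D1 (chr17:38249046-38256842, minus strand, 8 exons) had 42.1 and 56.9 TPM in PRO-seq and 3.32, 1.85, 2.33 and 2.16 TPM in RNA-seq. NR1D2 (chr3:23986777-24022108, plus strand, 8 exons) had 14.3 and 14.9 TPM in PRO-seq and 8.60, 10.0, 9.81 and 9.50 TPM in RNA-seq. NR1D1 thus had the higher PRO-seq level per unit of length and the lower RNA-seq level, with no overlap between the receptors in either assay. In summed PRO-seq counts NR1D1 had fewer than NR1D2 (176 against 262), over a shorter TU. With length correction NR1D1 had the lowest log2 ratio of the 10 (without it PER2 and CLOCK stood lower), -3.13 ± 0.210 (8.75-fold below, edgeR quasi-likelihood test, Benjamini-Hochberg adjusted p = 1.31e-49), on 87 RNA-seq and 176 PRO-seq counts. NR1D2 was 1.50-fold above the median mRNA (log2 ratio 0.58 ± 0.118, same test, adjusted p = 1.49e-06). The call for NR1D2 was lost among TUs past minimum levels (10 TPM for PRO-seq, 1 TPM for RNA-seq, log2 ratio 0.01, adjusted p = 0.930) and with at least 10 counts in each assay (0.12, adjusted p = 0.294). Of the exon bases of NR1D1, 10% overlap THRA on the opposite strand.

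DBP, a PAR bZIP factor and a direct output of CLOCK, had levels that overlapped those of NR1D1 in both assays. PRO-seq gave 33.5 and 50.2 TPM and RNA-seq 3.44, 3.48, 4.06 and 2.92 TPM. Both PRO-seq libraries lay far above all 4 RNA-seq libraries. The log2 ratio was -2.38 ± 0.218, or 5.21-fold below the median mRNA (edgeR quasi-likelihood test, Benjamini-Hochberg adjusted p = 3.23e-27). The TU (chr19:49133287-49140636, minus strand, 4 exons) shares 17.4% of its exon bases with SPHK2 on the opposite strand.

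**Figure D1:**
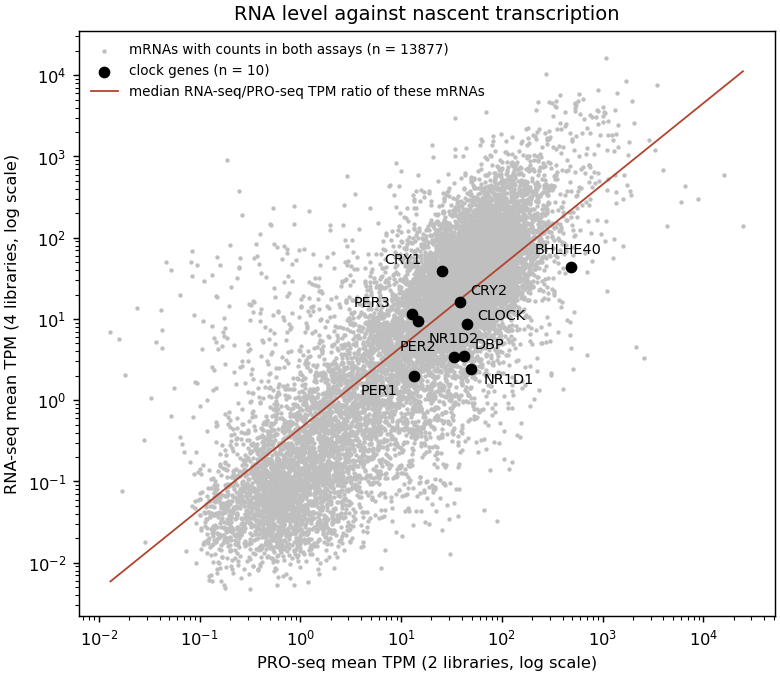
Mean TPM in RNA-seq (4 libraries) against mean TPM in PRO-seq (2 libraries), both on log axes, for 13877 mRNAs in grey and the 10 clock genes in black, with the line at the median TPM ratio of 0.453. CRY1, PER3 and NR1D2 lie above the line, and NR1D1, DBP, BHLHE40, PER2, PER1 and CLOCK lie below it.

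With length correction, 6 of 10 clock genes lay below the median mRNA and 3 above it, with CRY2 not called. Over all TUs tested, 44.0% were called below and 33.0% above, and over the 15069 mRNAs 38.5% and 43.3%. The median log2 ratio of the clock genes was -1.34, against 0.00 for mRNAs and -0.55 for all TUs tested, and changed sign to 0.15 without length correction. Of the 10, 4 (NR1D1, DBP, BHLHE40 and PER2) were under the lower quartile of mRNAs, -1.59, and CRY1 was over the upper quartile, 1.40. The spread of log2 ratios over the 10 genes (SD 1.67) was narrower than over mRNAs (SD 2.99), many of which have few counts.

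Among TUs past the minimum levels of 10 and 1 TPM, which hold all 10 genes, the reference moved up and the ratio of every clock gene was lower by 0.57 on the log2 scale. CRY2 was then called below (-0.63, edgeR quasi-likelihood test, Benjamini-Hochberg adjusted p = 8.74e-08) and NR1D2 was not called. That gave 7 clock genes below and 2 above, against 50.4% and 40.0% of 10053 TUs. Tested for a difference of over 2-fold, 6 clock genes were below and 1, CRY1, above, against 31.4% and 21.5% of all TUs. PER3 did not pass that test (adjusted p = 0.136).

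The ratios rest on the correction for length, as RNA-seq counts exons and PRO-seq the whole TU. Without it, BHLHE40 was called above the median mRNA (log2 ratio 0.58, edgeR quasi-likelihood test, Benjamini-Hochberg adjusted p = 4.62e-17), PER1 was not called (0.09, adjusted p = 0.738) and CRY2 was called above (0.36, adjusted p = 5.29e-05). NR1D1 was then at -1.04, DBP at -0.47, PER2 at -1.38 and CLOCK at -1.18, still below, and CRY1 at 0.21, PER3 at 1.30 and NR1D2 at 1.34, still above. That made 5 clock genes above and 4 below, against 38.3% and 49.8% of all TUs under the same setting.

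**Figure D2:**
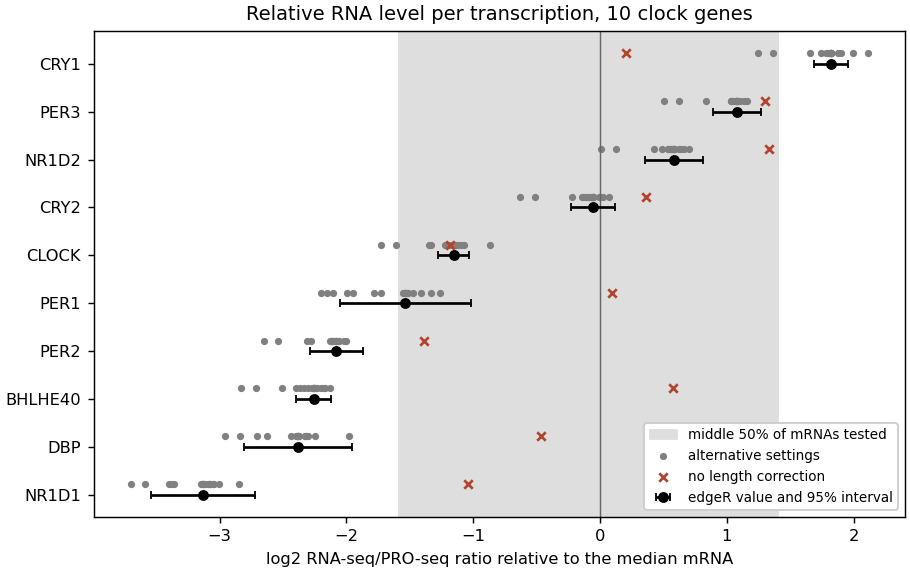
Log2 RNA-seq/PRO-seq ratio of each clock gene relative to the median mRNA (black points), sorted by value, over a grey band for the middle 50% of mRNAs tested. Bars are 95% intervals by a normal approximation, with the SE derived from the edgeR test statistic. Small grey points are the alternative settings and crosses the values without length correction. The ratios run from -3.13 for NR1D1 to 1.82 for CRY1, and without length correction PER1, CRY2 and BHLHE40 lie above 0.

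With length correction, the ratios spanned 30.9-fold from NR1D1 to CRY1. Without it, CRY1 (0.21 on the log2 scale) stood below CRY2 (0.36), PER3 (1.30) and NR1D2 (1.34). BHLHE40 (0.58) and DBP (-0.47) then stood above CLOCK (-1.18), while NR1D1 (-1.04) stayed below DBP. Between neighbours in the length-corrected order, NR1D1 lay below DBP by 0.75 on the log2 scale (95% interval 0.156 to 1.34). Each interval combines the SEs of both genes as if independent, with a normal approximation, although both were measured in the same libraries. The order itself was not tested. From DBP through BHLHE40, PER2 and PER1 to CLOCK, the interval of each gene against the next included 0. Further apart in this stretch, CLOCK lay above DBP by 1.23 (0.783 to 1.67), above BHLHE40 by 1.10 (0.921 to 1.29) and above PER2 by 0.93 (0.682 to 1.17). PER1 lay above DBP by 0.85 (0.178 to 1.51) and above BHLHE40 by 0.72 (0.191 to 1.25). For PER2 against DBP the interval included 0. CRY2 was above CLOCK by 1.10 (0.886 to 1.31), NR1D2 above CRY2 by 0.64 (0.350 to 0.926), PER3 above NR1D2 by 0.49 (0.195 to 0.794), and CRY1 above PER3 by 0.74 (0.510 to 0.979). The order of RNA levels was BHLHE40, CRY1, CRY2, PER3, NR1D2, CLOCK, DBP, PER2, NR1D1 and PER1, and library ranges overlapped between NR1D2 and CLOCK and between each neighbouring pair from DBP to PER1. The PRO-seq order was BHLHE40, NR1D1, CLOCK, DBP, CRY2, PER2, CRY1, NR1D2, PER1 and PER3, with overlap between neighbours from NR1D1 to CRY2 and from NR1D2 to PER3.

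In 3 of 5 paralogue pairs, on length-corrected levels, the gene with the higher PRO-seq level had the lower RNA-seq level in every library. The difference in log2 TPM between paralogues was taken in each library and compared between assays by a two-sided exact permutation test over 5 pairs, which with 4 against 2 libraries cannot go below p = 0.133. If each close pair of RNA-seq libraries is 1 sample, n is 2 against 2 and the smallest exact p is 0.333. NR1D1 minus NR1D2 was -2.00 ± 0.450 in RNA-seq (SD, n = 4) and 1.74 ± 0.265 in PRO-seq (SD, n = 2). PER2 minus PER3 was -1.75 ± 0.0614 in RNA-seq and 1.41 ± 0.0645 in PRO-seq. The order of each of these pairs was opposite in the assays, in every library.

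CRY1 minus CRY2 was 1.28 ± 0.129 in RNA-seq and -0.59 ± 0.00723 in PRO-seq. The gap between assays for this pair, 1.87, became -0.16 without length correction. CRY1 has the longer PRO-seq window (by 1.54 on the log2 scale) and CRY2 the longer exons (by 0.49). PER1 minus PER3 was -2.60 ± 0.426 in RNA-seq and 0.03 ± 0.658 in PRO-seq, so the pair was not ordered in PRO-seq. For these 4 pairs the libraries of the assays did not overlap, and each had the smallest p the design allows (exact p = 0.133, Benjamini-Hochberg adjusted 0.167). PER1 minus PER2 was -0.84 ± 0.434 in RNA-seq and -1.37 ± 0.593 in PRO-seq, which overlapped (exact p = 0.267).

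PER1, BHLHE40, NR1D1 and DBP have TUs in the shortest quartile of mRNAs, up to 14.689 kb, in which the median log2 ratio of mRNAs was 0.25. All 4 had log2 ratios below the median mRNA (PER1 and BHLHE40 not so without length correction), whereas CRY2, NR1D2, PER2, PER3, CRY1 and CLOCK, from longer quartiles, lay on both sides. The same 4 genes also had the largest differences between PRO-seq replicates 2 and 1, at 0.81 for PER1, 0.58 for DBP, 0.44 for NR1D1 and 0.16 for BHLHE40 in log2 TPM. Among mRNAs of that quartile with at least 10 counts in each library the median of this difference was 0.08, with quartiles of -0.07 and 0.24. Replicate 2 held 64.2% of the PRO-seq counts of PER1 (95% exact interval 52.8 to 74.6, counting error only) and 60.4% of those of DBP (51.8 to 68.6), against 50.9% over all TUs. For NR1D1 the share was 58.0% (50.3 to 65.3) and for BHLHE40 53.2% (50.4 to 56.0), intervals that include 50.9%. What sets the replicates apart was not tested. Without either PRO-seq library the log2 ratio of each of the 4 kept its sign, and that of PER1 ran from -1.95 to -1.26 over the 6 libraries left out in turn.

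The 3′UTRs of the counted transcripts are shown because they carry elements that control message stability in textbook accounts. ATTTA, the core of AU-rich elements, occurred in 8 of 10 clock genes, against 69.7% of 13834 mRNAs, and TGTANATA, the sequence read by PUMILIO proteins, in 7 of 10, against 27.0%. These shares are not adjusted for length, and the median 3′UTR was 1981 bases in the clock genes and 1199 in mRNAs. NR1D2 held 14 ATTTA (4.38 per kb), CLOCK 26 (3.46 per kb) and NR1D1 2 in a 3′UTR of 290 bases (6.90 per kb), against a median of 1.51 per kb in mRNAs and 2.31 per kb in the clock genes. PER1 and BHLHE40 had none, CRY2 had 0.856 per kb and DBP 1.24 per kb, all under the median of mRNAs. The 3′UTR read for PER1 is that of the counted transcript, which stops before the canonical end. The letters were searched on the transcribed strand, and a window of 30 bases from the GRCh37 genome is given, with ATTTA in capitals, for the 2 members with the lowest ratios, for CRY1 with the highest, and for NR1D2 with the most ATTTA per kb of those above the median mRNA.
NR1D1 (chr17:38249219-38249248, minus strand): aaaccagaatcttATTTAtattgttataaa
DBP (chr19:49133945-49133974, minus strand): tgcagataaatacATTTAtatttttaagaa
NR1D2 (chr3:24019357-24019386, plus strand): gATTTAggagatctccatgtctgtATTTAc
CRY1 (chr12:107385696-107385725, minus strand): tttcaattaagttATTTAaaaatattcttc
The element was present in genes on both sides of the median mRNA. BHLHE40 had no ATTTA and 1 TGTANATA in its 3′UTR of 1631 bases, and CRY1 had 2 of each in 638 bases. Whether either element relates to the ratios was not tested.

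A wider list of 27 other clock genes, named by role, gives the context of the 10. Of these, 26 were listed, 23 could be tested, 7 were called above the median mRNA and 11 below, and 5 were not called, with 33.0% and 44.0% of all TUs called above and below. Their median log2 ratio was -0.23. Kinases that act on PER proteins were called 3 above and 3 below of 6, ubiquitin ligases and the protease USP2 2 and 2 of 4 tested, and the output bZIP factors HLF and NFIL3 2 below of 3. BMAL1, the partner of CLOCK, was scarce in both assays (1.22 TPM in RNA-seq and 1.82 TPM in PRO-seq) and was not called (log2 ratio 0.60, edgeR quasi-likelihood test, Benjamini-Hochberg adjusted p = 0.0605).

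By the rule for this list, the 3 highest and 3 lowest called genes are named. CSNK2B, the regulatory subunit of casein kinase 2, had the highest log2 ratio, 4.45 ± 0.172, on 27 PRO-seq counts. HDAC3, the deacetylase recruited by the REV-ERB receptors, had 2.18 ± 0.0645, and the kinase CSNK1E 2.09 ± 0.268. At the low end, RORA, an activator that competes with the REV-ERB receptors, had 4 RNA-seq and 191 PRO-seq counts (log2 ratio -2.94 ± 0.543). The CLOCK paralogue NPAS2 and the receptor RORB had 0 counts in all RNA-seq libraries, with 22 and 17 in PRO-seq. Against a floor of 3 counts over the 4 RNA-seq libraries, NPAS2 was at least 1.98-fold lower than the median mRNA and RORB at least 3.29-fold lower.

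Outside both lists, the mRNAs closest to NR1D1 by distance over log2 TPM in the 6 libraries, among 11500 mRNAs, were NFATC2 (distance 0.713), KCNIP2 (0.718) and ZNF425 (0.732). Those closest to CRY1 were PSAT1 (0.168), PCCB (0.176) and DNAJC14 (0.189).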

How the data were processed

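K562 cells were profiled with 4 total RNA-seq and 2 PRO-seq libraries, grouped by their labels. For each library the authors deposited raw read counts per longest transcript, made after Cutadapt trimming, HISAT2 alignment to GRCh38 and HTSeq counting, leaving out TU ends for PRO-seq. Versions of these tools, and whether counting used strand, are not given in sources used here, so reads of overlapping TUs on opposite strands may not be separated. Rows naming no TU held 66.5% to 68.6% of RNA-seq records and 86.5% or 88.6% of PRO-seq records, and were left out. The PRO-seq label names 500 bp left out, which the methods of the study place at each end.

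Transcripts were joined by identifier to GENCODE 44 lifted to GRCh37 (88.1% of 42371 matched), and lengths are from that annotation. TUs of 1000 bp or less (85) were left out. The main test was edgeR 4.0.16 (R 4.3.3) with its quasi-likelihood test, TMM normalization, length offsets, a reference at the median mRNA, a minimum of 10 counts over the 6 libraries and a threshold of 0.05 on Benjamini-Hochberg adjusted p. DESeq2 1.42.0 was an alternative. Other steps used Python 3.11.15 with numpy, pandas and scipy. On simulated counts for RNA-seq against PRO-seq (21120 TUs), the edgeR step recovered 87% of 100 TUs changed by log2 1 and 100% of 100 changed by log2 2, with 3 false calls. The simulation had a fixed dispersion and no lengths, changed only TUs with higher counts, and left all others equal between assays. It therefore checks the code and does not measure how well the real ratios were called. Alternatives changed the model, normalization, minimum counts, TPM thresholds, lengths, reference, fold tested and libraries.

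The members, lists, motifs and tests were chosen with earlier results of these data known. Named were all 10 members, the 3 highest and 3 lowest called genes of the wider list, and the 3 nearest mRNAs to the members with the lowest and highest ratio. BMAL1, HLF, NFIL3 and USP2 were named after their values were seen, as were BHLHE41, CIART and CSNK1D. Some genes of the wider list enter its counts and are not reported here by name.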

Additional observations from a re-analysis of the deposited data

How the results depend on the processing

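Over 20 alternatives for each of the 10 log2 ratios, 188 results kept direction and side of the threshold, 6 reversed, 4 lost the call and 2 gained it. CRY2, which was not called, gave 0.00161 with at least 1 count in each assay, and 0.0226 and 0.0746 with bases shared on the same or either strand left out of lengths. Without length correction CRY2 was 0.36, PER1 0.0911 and BHLHE40 0.58, CRY1 minus CRY2 was -0.16, and 5 clock genes were called above (38.3% of all TUs). Tested for over 2-fold, 1 clock gene was above and 6 below, against 21.5% and 31.4% of all TUs. Of the 23 tested genes of the wider list, 5 were then above and 5 below. Under the TPM thresholds 4 of the wider list were above and 10 below, against 40.0% and 50.4% of 10053 TUs. How many of that list passed the thresholds is not given here. These settings changed the lengths, the set of TUs and its reference, or the fold tested, and their separate effects were not tested.

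For same-numbered RNA-seq and PRO-seq libraries, the differences between replicates 1 and 2 had a correlation of -0.05 over 10564 TUs. This is a single difference per assay and includes counting error, so whether same-numbered libraries share a sample was not tested. With the replicate number as a block, 3 clock genes were above and 6 below. Of the same 21621 TUs, 6763 were then above and 7620 below, against 7138 and 9508 without the block. With 2 PRO-seq libraries, counts of 81 to 176 for PER1, DBP and NR1D1 in PRO-seq limit the precision of their ratios.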

Other observations

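Of the wider list, BHLHE41 and CIART had too few counts to be tested, with 0 and 4 counts in RNA-seq and 1 and 3 in PRO-seq over all libraries. The counted transcript of the kinase CSNK1D held 33.8% of the exon bases of the canonical transcript, and its log2 ratio relative to the median mRNA, -1.52, is of that transcript.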
